A study of Mus musculus with 50 samples.

Results

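Itga2b encodes CD41, the integrin alpha IIb chain, and its transcript divided the 50 sequenced single iHECs into 34 cells with a high level (TPM above 10), 10 cells in which it was absent (TPM of 1 or less) and 6 cells between these limits. TPM is a length-scaled transcript abundance on a common total. The 44 high and absent cells were compared across all other genes, and the 6 cells between were set aside. The members were chosen by the measured Itga2b TPM alone, so that gene is given below as a description only.

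All 50 cells were of 1 kind, mouse hemogenic endothelial cells made in culture (iHECs), and high and absent cells shared every label. They came from iRunx1-ESCs, embryonic stem cells of C57BL/6 background with a doxycycline-inducible Runx1 cassette at the Rosa26 locus, selected as drug-resistant clones. The cells were induced in conditioned medium that contained SCF, IL3, IL6 and Flt3L, received doxycycline, and were sorted at day 11 by surface protein as CD31+CD41low CD45- c-kit+CD201high. The cells are culture-made, carry a forced factor in both classes, and the gene-level values do not separate cassette Runx1 from the endogenous gene. The labels tie no cell to a culture or sorting batch, so the 50 cells count as 1 sample. There was no replicate, no test was made, and each SD below is the spread over cells.

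Hemogenic endothelium is the vessel lining that gives rise to blood. In the endothelial to hematopoietic transition such cells gain blood transcription factors and surface proteins and lose their flat endothelial form. CD41 is among the earliest surface proteins gained on that path, and it stays on megakaryocytes and platelets, where it pairs with integrin beta 3 to bind fibrinogen. The comparison therefore asked how far blood, endothelial and cell division genes differed between cells at high and at very low levels of its transcript inside a sort that had already selected low CD41 protein.

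Itga2b lies on the minus strand of chromosome 11, from 102453297 to 102470122 in GENCODE M21 (GRCm38, equal to the mm10 build of the deposited table). The 250 bases before its RefSeq start (GRCm38.p6, chr11:102469884-102470133, minus strand) are shown because this gene set the classes and because ETS, RUNX and GATA factors are members of the blood factor list. Capitals mark the ETS core GGAA and the RUNX core TGTGG, each searched on both strands (TTCC and CCACA).

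Itga2b: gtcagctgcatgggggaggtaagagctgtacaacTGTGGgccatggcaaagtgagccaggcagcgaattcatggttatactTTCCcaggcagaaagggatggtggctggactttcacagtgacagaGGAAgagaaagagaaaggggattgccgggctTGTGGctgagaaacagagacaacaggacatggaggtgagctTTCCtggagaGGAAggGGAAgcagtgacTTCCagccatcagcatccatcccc

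The window held 6 matches to the ETS core, 2 to the RUNX core and 0 to the GATA core GATA (TATC on the other strand). Of 32851 mouse promoter windows of this length, 93.4% held the ETS core, 49.3% the RUNX core and 53.6% the GATA core. The matches describe letters only. In GENCODE M21 the coding transcript Itga2b-201 has the same start, while the noncoding transcript Itga2b-205 begins at 102470122, so that 239 of the 250 bases lie within the outer bounds of the gene.

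Itga2b stood at a median of 94.7 TPM in the 34 high cells, with a range of 15.8 to 609. In the 10 absent cells the median was 0.176 TPM, the highest was 0.750 TPM in cell 2-13, and 4 cells were listed at 0. Cells are named by the numbers in their titles. The lowest cell between the limits, cell 4-2, had 2.54 TPM, the highest, cell 1-2, had 7.78 TPM, and the lowest high cell, cell 1-9, had 15.8 TPM. Both classes were found under each of the 4 first title numbers, which the labels leave unexplained. The high cells numbered 7, 10, 10 and 7 and the absent cells 3, 3, 2 and 2.

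**Figure D1:**
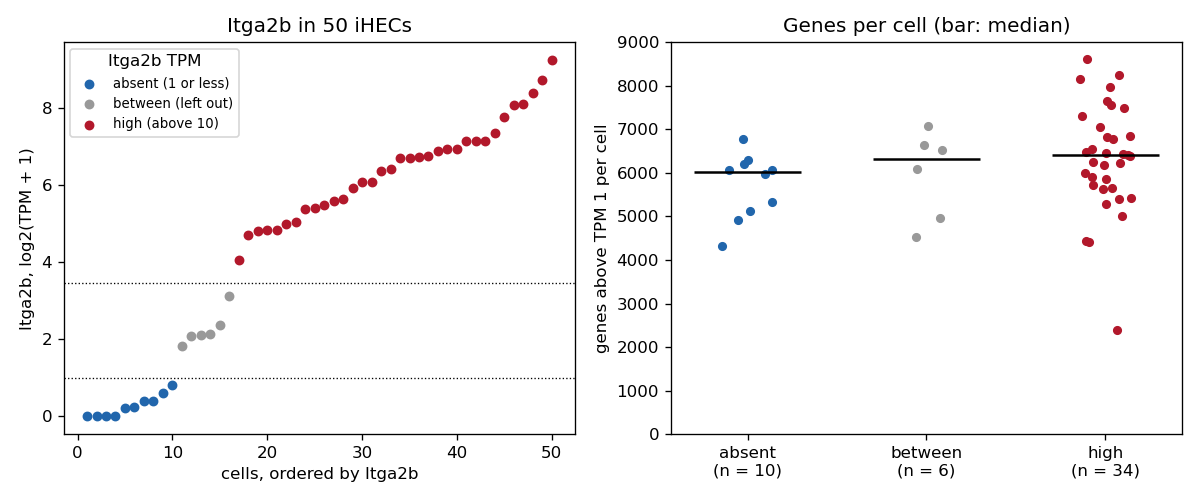
Left, Itga2b as log2(TPM + 1) in the 50 cells in order of level, with dotted lines at TPM 1 and 10; right, the number of genes above TPM 1 in each cell by class, with a bar at the median. High cells had a median of 6406 genes and absent cells 6021, and the ranges overlapped.

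TPM keeps no record of reads per cell, and the count of genes above TPM 1 stood in for how much of a transcriptome each cell gave. High cells had a median of 6406 such genes (range 2400 to 8615) and absent cells 6021 (range 4326 to 6773). The lowest of all cells, the high cell 4-6, had 2400. Over the 50 cells Spearman's rho between Itga2b and genes per cell was 0.25, a description of cells that share unknown depths. Genes are therefore given with their difference of means on the log2(TPM + 1) scale at an equal number of genes per cell (the adjusted difference), and a plain difference of means is called unadjusted. A fold change on this scale understates the change of low genes. Values of 0 are described only as listed at 0, since Hprt and Tbp, used by every cell, were also listed at 0 in some.

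Across the 9103 genes above TPM 1 in at least 10 of the 50 cells, Itga2b left out, no gene separated the classes. The adjusted difference was 2 or more in favor of high cells for 72 genes (0.791%) and in favor of absent cells for 77 genes (0.846%). Without the adjustment the counts were 177 (1.94%) and 20 (0.22%) for the same directions. The balance of directions thus changed with the adjustment for genes per cell. The median adjusted difference of all genes was -0.02 and the median unadjusted difference 0.25, with 48.9% and 62.9% of genes above 0. The share of cells above TPM 1 was at least 40 points greater in high cells for 161 genes (1.77%) and at least 40 points smaller for 16. With high cells limited to the absent cells' range of genes per cell, these counts were 93 and 69. The filter of 10 cells could be met by high cells alone, but by absent cells alone only if all 10 held the gene. Genes found mostly in absent cells could thus be dropped more easily. How far this shaped the counts was not tested. For 0 genes (0%) did every high cell lie above every absent cell, or below. Of the 149 genes past 2 in either direction, 90 had the same sign under all 4 first title numbers (60.4%), against 13.3% of all 9103 genes, which share the cells that set the differences.

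**Figure D2:**
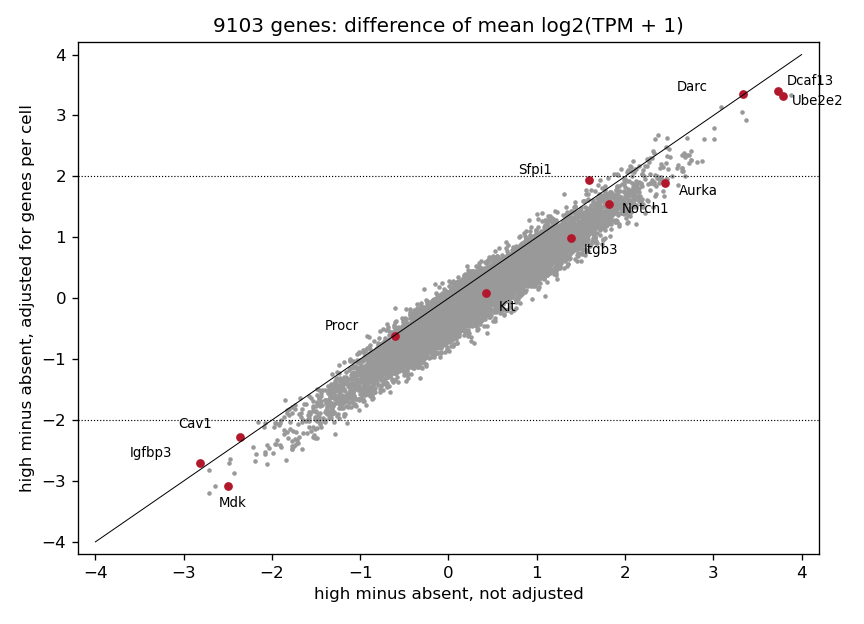
Difference of mean log2(TPM + 1), high minus absent cells, for 9103 genes, without (x axis) and with (y axis) adjustment for genes per cell, 1 point a gene. Red points are labelled genes, the solid line marks equal values and the dotted lines mark 2 and -2, past which 72 and 77 genes lie.

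Itgb3, the beta 3 chain that pairs with CD41, ranged from 0 to 348 TPM in high cells with a median of 59.1 TPM, and from 0 to 160 TPM in absent cells with a median of 21.1 TPM. The mean was 5.34 ± 1.81 (SD, n = 34) in high and 3.96 ± 2.54 (SD, n = 10) in absent cells on the log2 scale, an adjusted difference of 0.98. It was above TPM 1 in 32 of 34 high cells (94.1%, exact Clopper-Pearson 95% interval 80.3% to 99.3%) and in 8 of 10 absent cells (80%, interval 44.4% to 97.5%). These intervals cover counting error over cells only. The adjusted difference was smaller than either SD. With 1 cell left out it ran from 0.51 (without the absent cell 3-5) to 1.34 (without the absent cell 1-7). The unadjusted difference was -2.0 under the first title number 1 against 3.08, 3.45 and 1.31 under the others. Transcripts of the partner chain were thus found in most cells with Itga2b at TPM 1 or less.

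The genes of the sort differed by less than their spread over cells. Kit, the stem cell factor receptor, had medians of 40.5 TPM in high and 37.3 TPM in absent cells, with an adjusted difference of 0.09 and an unadjusted one of 0.42. Pecam1 (CD31), an adhesion protein of endothelial junctions, had medians of 306 and 443 TPM and an adjusted difference of -0.29. Procr (CD201), the protein C receptor, had medians of 302 and 378 TPM and an adjusted difference of -0.62. Pecam1 and Procr were above TPM 1 in all 44 cells, and Kit in 32 of 34 and 9 of 10. Ptprc (CD45), the pan-leukocyte phosphatase by which cells were sorted out, was listed at 0 in all 50 cells.

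Runx1, the factor that drives the transition and that the cassette supplies, differed between the classes by far less than its SD. It ranged from 0.300 to 742 TPM in high cells (median 155 TPM) and from 0.615 to 351 TPM in absent cells (median 130 TPM). The means were 6.29 ± 2.94 (SD, n = 34) and 6.15 ± 2.81 (SD, n = 10), and the adjusted difference was -0.36. The unadjusted difference was 0.14, and under the 4 first title numbers it was -0.94, 0.96, -1.56 and 2.01, without a single direction.

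Of the 30 blood transcription factors listed, 23 passed the filter, 0 of them past 2 in either direction. The adjusted difference was above 0 for 11 and below 0 for 12 (48.9% of all genes above 0), with a median of -0.09 whose sign was kept in 7 of 17 alternative settings. Sfpi1 (PU.1, now Spi1), the factor of myeloid and lymphoid priming, had the largest difference, 1.93. For Sfpi1 this was 1.28 without cell 4-6 and 2.84 without the absent cell 1-3. Its median was 1.37 TPM in high cells (range 0 to 3843 TPM) and 0.300 TPM in absent cells (range 0 to 326 TPM). It was above TPM 1 in 18 of 34 high cells and 4 of 10 absent cells, and its SDs of 3.9 and 3.09 exceeded the difference. Myc, a growth factor-responsive transcription factor, was lower in high cells by 1.29 (medians 10.7 and 42.9 TPM). Bcl11a, a lymphoid and globin-switching factor, had an adjusted difference of -1.24, and Meis1, a stem cell homeobox factor, of -1.14. With 1 cell left out these ran from -1.51 to -0.73 and from -1.55 to -0.72. Under the 4 first title numbers the unadjusted difference was -1.80, -0.91, 1.13 and -2.01 for Bcl11a. For Meis1 it was 0.71, -3.64, 0.81 and -1.68. Gata1, the erythroid and megakaryocyte factor, and Myb, a factor of definitive progenitors, were listed at 0 in all 50 cells.

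Megakaryocyte and platelet genes, the mature setting of CD41, were divided in direction. Of 36 listed, 31 had a row and 20 passed the filter. The adjusted difference was above 0 for 8 and below 0 for 12 (48.9% of all genes were above 0). The median was -0.11, its sign was kept in 9 of 17 alternative settings, and 0 genes were past 2. Serpine2, a protease inhibitor, had the largest value, 1.82, with medians of 45 TPM in high cells (range 0 to 562 TPM) and 0 in absent cells (range 0 to 216 TPM). Vwf, the von Willebrand factor that endothelium and platelets both store, ranged from 0 to 232 TPM in high cells (median 9.18 TPM) and from 0 to 24.3 TPM in absent cells (median 0.169 TPM). Vwf was above TPM 1 in 24 of 34 high cells and 4 of 10 absent cells, with an adjusted difference of 1.71 and unadjusted differences that pointed the same way under all 4 first title numbers. Plek, pleckstrin, a platelet kinase substrate, had an adjusted difference of 1.61 and was above TPM 1 in 12 of 34 and 1 of 10 cells. These 3 genes were named for the size of their difference, while most of the list, 12 of 20 genes, went the other way. The defining genes Gata1, Ppbp and P2ry12 were listed at 0 in every cell.

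**Figure D3:**
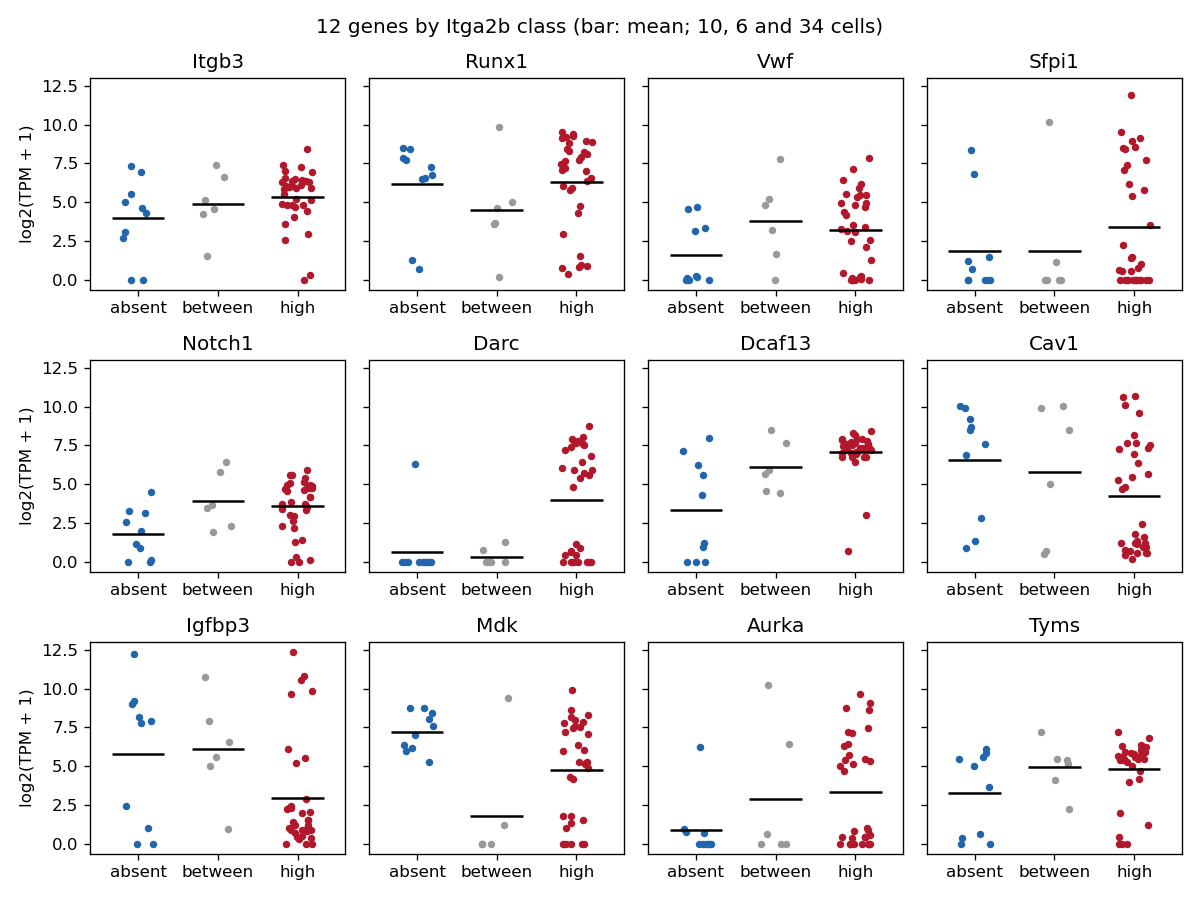
Log2(TPM + 1) of 12 genes in the single cells, with absent (n = 10), between (n = 6) and high cells (n = 34) in separate columns, 1 point a cell and a bar at the mean. Itgb3 and Runx1 overlap widely, the means of Notch1, Vwf and Dcaf13 are higher in high cells and those of Cav1, Igfbp3 and Mdk in absent cells, with overlap for every gene.

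Leukocyte genes had a small positive median that did not keep its sign in every setting. Of 37 listed, 23 passed the filter, 14 above and 9 below 0 (48.9% of all genes were above 0). Their median adjusted difference was 0.27, and 0 were past 2. The median was -0.24 without the first title number 2, -0.19 with absent cells listed at 0 only and -0.01 without the absent cell 2-12. Ucp2, a mitochondrial carrier, had medians of 75.7 TPM in high and 17.3 TPM in absent cells and an adjusted difference of 1.37, in the same direction under all 4 first title numbers. Ptpn6 (SHP-1), a phosphatase that restrains immune receptors, was above TPM 1 in 25 of 34 high cells and 4 of 10 absent cells, with an adjusted difference of 1.33. Coro1a, a leukocyte actin regulator, had an adjusted difference of 1.2 and was above TPM 1 in 14 of 34 and 3 of 10 cells. Of the members below 0, picked after their values were seen, Cd44, a hyaluronan receptor, had -0.99 and Inpp5d (SHIP-1), a lipid phosphatase, -0.96. The level of the list, taken as the mean log2(TPM + 1) over its 37 genes, ran from 1.25 to 4.56 in high cells and from 0.99 to 3.43 in absent cells. Spn, Cd48, Cytip and Fyb were listed at 0 in all cells, as was Ptprc.

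Cytokine and growth factor receptors had a negative median. Of the 10 that passed the filter, 3 were above and 7 below 0 (48.9% of all genes were above 0). Their median adjusted difference was -0.75, and it was -0.03 over all members with no filter on low values. Il6st (gp130), the shared signaling chain of the IL6 family, ranged from 0 to 64.2 TPM in high cells (median 1.64 TPM) and from 0 to 62.0 TPM in absent cells (median 23.3 TPM). Its adjusted difference was -1.55, with SDs of 2.14 and 2.43, while the unadjusted difference under the first title number 3 was 2.2. Csf2ra, the GM-CSF receptor chain, had an adjusted difference of -1.12 and Il3ra, the IL3 receptor chain, of -0.82, with unadjusted differences of -0.55 and -0.39. Csf2ra was at 1.13 with absent cells listed at 0 only, and the unadjusted difference of Il3ra was -2.42, -0.15, 1.2 and 1.19 under the 4 first title numbers. The unadjusted difference in the level of the whole list was -0.87, -0.22, 0.44 and 0.28. The beta chains that pair with these, Csf2rb and Csf2rb2, picked after their values were seen, had values of 0.58 and 0.20. Csf2rb was above TPM 1 in 33 of 34 high cells and 10 of 10 absent cells. Flt3, the receptor of a ligand in the medium, was listed at 0 in every cell.

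Markers of cells outside the sort were few in both classes. Of the 16 myeloid markers with a row, 5 passed the filter, and Elane, Cybb, Itgam, Emr1, C1qa, C1qb and C1qc were listed at 0 in all cells. Prtn3, a granule protease, had an adjusted difference of -1.37 and Lyz2, lysozyme, of -0.05. With 1 cell left out that of Prtn3 ran from -1.78 to -0.49, the latter without the absent cell 1-3. No mast cell or mesenchymal marker passed the filter, and Col3a1, Pdgfrb and Postn were at 0 throughout. Among erythroid markers the transferrin receptor Tfrc alone passed, at 0.52. The embryonic globin Hbb-bh1 and the adult globin Hba-a2, named after their values were seen, each exceeded TPM 1 in 2 of 34 high and 2 of 10 absent cells. Their highest values, 821 and 969 TPM, were in the absent cells 2-12 and 1-7. Hba-a2 has a near-identical copy, so its values are uncertain. The part of such transcripts in any result was not tested.

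Pan-endothelial genes had a median near 0, and both caveolin genes were lower in high cells. Of 36 pan-endothelial genes past the filter, 13 were above and 23 below 0 (48.9% of all genes were above 0). The median adjusted difference was -0.12, and its sign was kept in 10 of 17 alternative settings. The 1 gene past 2 was Cav1, while 0.846% of all genes were at -2 or less. Cav1 encodes caveolin 1, the coat protein of the membrane pits abundant in endothelium. It ranged from 0.165 to 1625 TPM in high cells (median 14.7 TPM) and from 0.865 to 1047 TPM in absent cells (median 272 TPM). It was above TPM 1 in 9 of 10 absent cells and 25 of 34 high cells, and the ranges overlapped. The adjusted difference was -2.28 (means 4.22 ± 3.51 and 6.58 ± 3.54, SD, n = 34 and n = 10), and the unadjusted one was -1.65, -1.84, -4.52 and -1.74 under the 4 first title numbers.

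Its partner Cav2 had medians of 75 TPM in high and 245 TPM in absent cells and an adjusted difference of -1.69, although the unadjusted one under the first title number 4 was 0.14. Clec14a, an endothelial lectin, had an adjusted difference of -1.05. Podxl, a sialomucin of the luminal surface, went the other way, at 1.25, and was above TPM 1 in 28 of 34 and 5 of 10 cells. The endothelial level over the whole list had medians of 6.49 in high and 6.42 in absent cells on the log2 scale.

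Arterial and Notch genes were split, 8 above and 7 below 0 of 15 (48.9% of all genes were above 0). Their median adjusted difference was 0.08. Notch1, the receptor whose signal is needed for arterial and hemogenic fate, ranged from 0 to 59.4 TPM in high cells (median 15.2 TPM) and from 0 to 22.1 TPM in absent cells (median 2.1 TPM). It was above TPM 1 in 30 of 34 high cells (88.2%, interval 72.5% to 96.7%) and in 6 of 10 absent cells (60%, interval 26.2% to 87.8%). The adjusted difference was 1.55, below the SD of high cells (1.73), and the unadjusted one was 1.03, 1.92, 1.4 and 3.53 under the 4 first title numbers. Vegfc, a lymphatic growth factor, and Nrp1, a VEGF co-receptor, had adjusted differences of 1.31 and 1.21. Hes1, a direct Notch target, had the opposite sign, -1.15.

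Of 9 venous and lymphatic genes, 1 had an adjusted difference above 0 (48.9% of all genes did) and 8 below, with a median of -0.56 and 0 past 2. The median was 0 by difference of medians and 0.08 with absent cells listed at 0 only. Mrc1, the mannose receptor of sinusoidal endothelium and macrophages, was above TPM 1 in 6 of 34 high cells and 5 of 10 absent cells, with an adjusted difference of -1.67. Lyve1, a hyaluronan receptor, had medians of 55.0 TPM in high and 195 TPM in absent cells and an adjusted difference of -1.42, with unadjusted values of -6.84, -1.19, 2.91 and 1.7 under the 4 numbers. Aplnr, a venous receptor, had a value of -0.83 and the scavenger receptor Stab1 of 0.98.

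**Figure D4:**
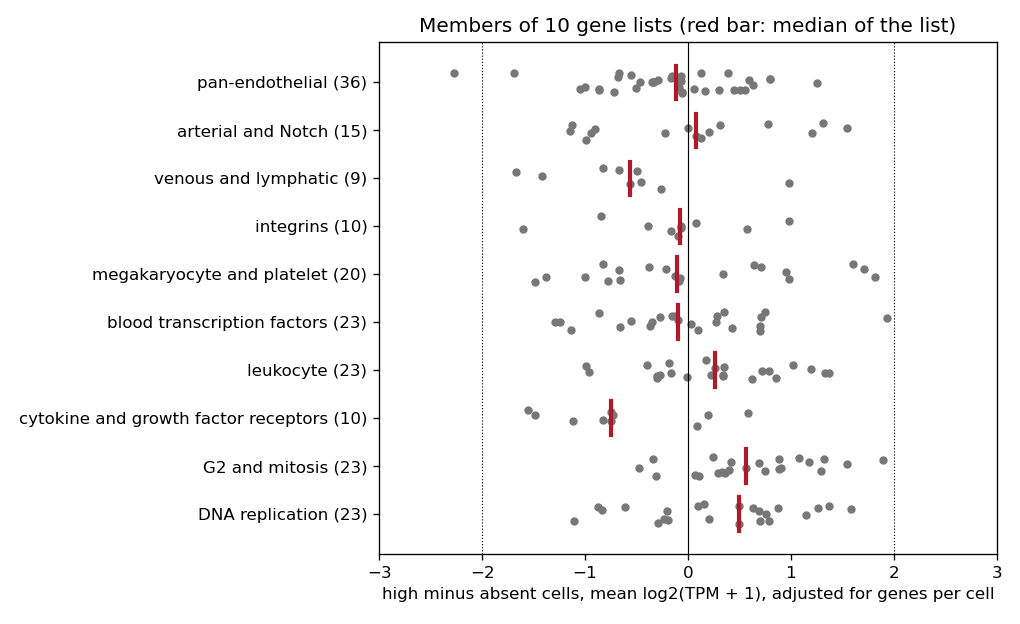
Adjusted difference of each gene that passed the filter in 10 lists, 1 point a gene, with a red bar at the list median and dotted lines at 2 and -2. The cell division lists have medians of 0.56 and 0.50, which were 0.12 and 0.0011 without the high cell 4-6, and the megakaryocyte, blood factor and pan-endothelial lists have medians of -0.11, -0.09 and -0.12.

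Most genes of the cell division lists had an adjusted difference above 0, but the size of these medians moved when single cells were left out. Of 23 genes of G2 and mitosis, 20 had an adjusted difference above 0 (48.9% of all genes did) and 3 below, with a median of 0.56, against 1.06 before the adjustment. Of 23 DNA replication genes, 15 were above and 8 below 0, with a median of 0.50, against 1.01 before. Without the high cell 4-6, which had the fewest genes, the medians were 0.12 and 0.0011, below those of the arterial (0.39) and leukocyte lists (0.34). Without the absent cell 1-3 they were 1.00 and 0.94, and with high cells limited to the absent cells' range of genes per cell they were 0.15 and 0.11. In neither list did a gene pass 2. Their levels went with genes per cell, with Spearman's rho of 0.40 for G2 and mitosis and 0.74 for replication over the 50 cells, which share unknown depths.

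Aurka, the mitotic kinase Aurora A, ranged from 0 to 818 TPM in high cells (median 0.949 TPM) and from 0 to 75.2 TPM in absent cells (median 0). It was above TPM 1 in 17 of 34 high cells (50%, interval 32.4% to 67.6%) and 1 of 10 absent cells (10%, interval 0.253% to 44.5%). The adjusted difference was 1.89, and it was 0.95 without cell 4-6 and 2.46 without the absent cell 1-3. Plk1, polo-like kinase 1, was above TPM 1 in 10 of 34 high cells and 0 of 10 absent cells, a count that allows a share of up to 30%. No absent cell counted toward its passing the filter. Ccnb1, cyclin B1, had an adjusted difference of 1.54 and was above TPM 1 in 20 of 34 and 4 of 10 cells. Cdca8 (borealin), of the chromosomal passenger complex, had a value of 1.29. Among replication genes, Tyms, thymidylate synthase, had medians of 47.4 and 21.5 TPM and an adjusted difference of 1.59. Gins2 and Mcm5, parts of the replicative helicase, had values of 1.37 (0.54 without cell 4-6) and 1.26, and Cdt1, a licensing factor, of 1.15.

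A high G2 and mitosis level was found in a subset of the high cells. The mean level of the 26 G2 and mitosis genes had a median of 1.73 in high cells (range 1.03 to 8.32) and 1.48 in absent cells (range 1.07 to 4.05). The absent cell with 4.05 was cell 1-3, the next absent cell had 1.91, and 14 of 34 high cells lay above 1.91 and 7 above 4.05. A level over 4.05 was not limited to high cells, since 1 of the cells set aside reached 8.60. For replication the absent cell 1-3 reached 7.08, above all 34 high cells, whose highest was 6.58. The class difference in the G2 level was 1.05, 0.73, 1.69 and 1.28 under the 4 first title numbers, and in the replication level -0.71, 1.3, 0.97 and 1.1.

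**Figure D5:**
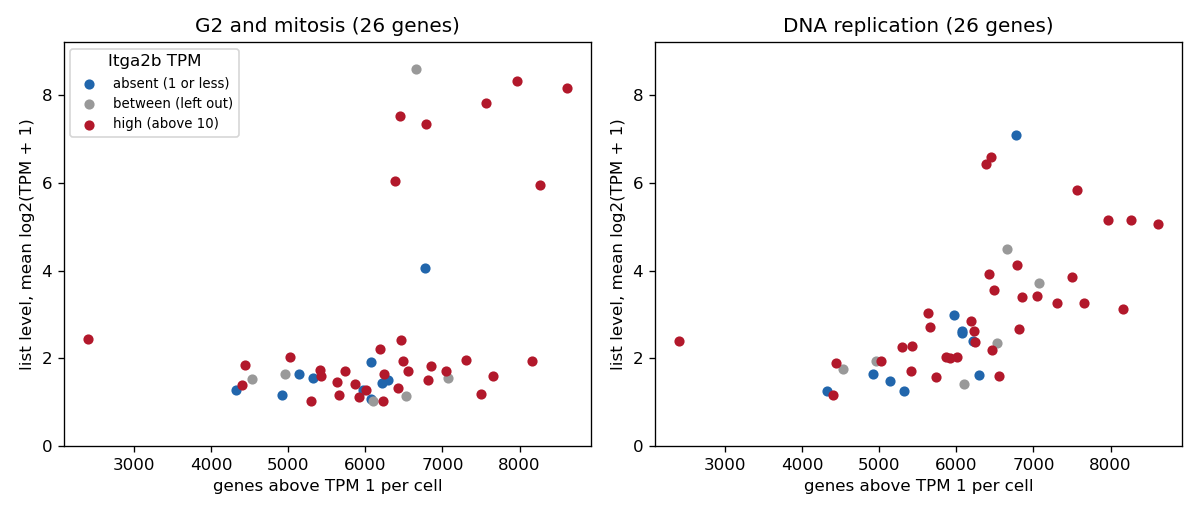
Mean log2(TPM + 1) over 26 G2 and mitosis genes (left) and 26 DNA replication genes (right) against the number of genes above TPM 1, 1 point a cell, colored by Itga2b class. The 7 high cells above 4.05, the top absent level in G2 and mitosis, stand apart from the remaining high cells. The absent cell 1-3 has the top replication level.

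Of 10 integrins, Itgb3 included, 3 were above and 7 below 0 (48.9% of all genes were above 0), with a median of -0.08. Itga3, a laminin receptor chain, had medians of 17.5 TPM in high and 34 TPM in absent cells, an adjusted difference of -1.60 and the same sign under all 4 numbers. Itgav, which also pairs with the beta 3 chain, had a value of -0.85. Itga2, a collagen receptor chain, was above TPM 1 in 7 of 34 high cells and listed at 0 in all 10 absent cells, with a value of 0.58. Itgam (CD11b), of myeloid cells, was at 0 in every cell.

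The genes with the largest values over the whole table, required to have 1 sign under all 4 first title numbers, were of mixed function, and this rule used the contrast itself. Dcaf13, a nucleolar factor of ribosome assembly, had the largest value in favor of high cells, 3.39. It ranged from 0.617 to 346 TPM in high cells (median 160 TPM) and from 0 to 252 TPM in absent cells (median 10.3 TPM), and was above TPM 1 in 33 of 34 and 6 of 10 cells. Darc (now Ackr1), the atypical chemokine receptor of venular endothelium and red cells, followed at 3.36. Darc ranged from 0 to 424 TPM in high cells (median 44.2 TPM), and 9 of 10 absent cells were listed at 0, the remaining one having 76.6 TPM.

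The ubiquitin-conjugating enzyme Ube2e2 was above TPM 1 in 23 of 34 high cells (67.6%, interval 49.5% to 82.6%) and was listed at 0 in all 10 absent cells. Trim3, a ubiquitin ligase, was above TPM 1 in 24 of 34 and 0 of 10 cells, with an absent maximum of 0.435 TPM and an adjusted difference of 3.06. In both genes 10 high cells were listed at 0, so the classes overlapped at 0. Both genes met the filter of 10 cells through the high cells alone. A gene found only in absent cells would have needed all 10 of them, so the reverse pattern could hardly appear. Prmt7, an arginine methyltransferase, had a value of 3.33 and medians of 84.0 and 0.191 TPM. The remaining 7 of the 12 were B4galt7, St3gal6, Dmap1, 2200002D01Rik, Aldoc, Mettl6 and Tnfrsf9, with adjusted differences of 2.42 to 2.93. Tnfrsf9 (4-1BB), a costimulatory receptor, had medians of 253 TPM in high and 3.33 TPM in absent cells.

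In the other direction Tbc1d19, a predicted Rab GTPase activator, had the largest value, -3.20, with medians of 6.53 TPM in high and 69.1 TPM in absent cells. Mdk, the secreted heparin-binding growth factor midkine, ranged from 0 to 975 TPM in high cells (median 37 TPM) and from 37.7 to 428 TPM in absent cells (median 159 TPM). All 10 absent cells held Mdk above TPM 1 and so did 28 of 34 high cells, and the adjusted difference was -3.08. Igfbp3, a secreted binding protein of insulin-like growth factors, ranged from 0 to 5220 TPM in high cells (median 1.76 TPM) and from 0 to 4808 TPM in absent cells (median 229 TPM). Its adjusted difference was -2.71, below both SDs of 3.56 and 4.45.

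Cpt2, the inner-membrane enzyme of mitochondrial fatty acid import, was above TPM 1 in 12 of 34 high cells and 9 of 10 absent cells, with a value of -2.82. Coq5, of coenzyme Q synthesis, was above TPM 1 in 19 of 34 and 9 of 10 cells, with a value of -2.53. The other genes of this set were Rnf166, Inpp1, Xylt2, Ostm1, Mblac2, Ggh and Mid1ip1, between -3.08 and -2.42. Housekeeping genes had values of 0.33 for Gapdh, 0.27 for Hprt, -0.23 for Eef1a1 and 0.36 for Tbp.

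Within the 34 high cells the level of Itga2b, which spanned 15.8 to 609 TPM, was set beside the lists as a description. These items were chosen after their values were seen. Spearman's rho was 0.43 for the blood factor level and 0.39 for the megakaryocyte level, against 0.09 for the leukocyte, -0.19 for the pan-endothelial and 0.04 for the G2 and mitosis level. Among other lists, mesenchymal markers had 0.34, pluripotent markers 0.30, erythroid markers 0.28 and the cytokine receptors 0.30. Only 1 pluripotent marker, Klf4, and 8 mesenchymal markers had a row. Both of these levels had a median of 0 in high cells, so their values rest on few genes and many ties. With 1 first title number left out at a time the blood factor value ran from 0.28 to 0.52 and the megakaryocyte value from 0.29 to 0.53. Cbfb, the DNA-binding partner of Runx1, had a rho of 0.55, Kit 0.41, Runx1 itself 0.21 and Itgb3 0.04. With 1 first title number left out these ran from 0.39 to 0.65 for Cbfb, 0.31 to 0.57 for Kit, 0.06 to 0.40 for Runx1 and -0.15 to 0.30 for Itgb3, so the ranges of Cbfb, Kit and Runx1 overlapped. Of all 9103 genes, 1.59% had a rho of 0.4 or more and 0.33% of 0.5 or more. Genes per cell had a rho of 0.06 with Itga2b in these cells, whose depths are unknown.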

How the data were processed

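Single iHECs were sorted, their cDNA was amplified with a whole-transcriptome kit (Discover-sc WTA Kit V2) and libraries were sequenced. Per the submitters' processing notes and methods, the authors used bcl2fastq, HISAT2 2.1.0, SAMtools 0.1.19 and StringTie 1.3.4 on mm10. The deposited values are TPM estimated by the authors for each gene in each cell. TPM keeps no read counts, so depth per cell is unknown, and no molecular identifiers were named, so amplified copies were not told apart. The series text and the methods name different sequencers. The table holds 11879 gene rows for 50 cells, of which 515 rows were listed at 0 in all cells. How rows were selected is not given in the sources used here.

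Cells were classed by Itga2b at TPM above 10 and at or below 1. On log2(TPM + 1), with a pseudocount of 1, a linear fit per gene gave the difference of high minus absent cells with the number of genes above TPM 1 per cell as covariate. Genes above TPM 1 in at least 10 of the 50 cells were kept, which left 9103, and a difference of 2 was used as the level of size. The fit was tested on simulated data with known differences. Because the labels name no culture or animal, cells were not treated as replicates, and no p-value or standard error was computed. Differences were also given within each first title number. Shares have exact Clopper-Pearson 95% intervals, and a count of 0 was given the limit of 3 counts.

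Named genes were Itga2b, Itgb3, the sort genes, Runx1, the 4 kept members of each list with the largest adjusted difference, list-defining genes at 0, and the 12 largest per direction with 1 sign under every first title number. The values of 1 gene named by this rule are not reported here, but its lists were summarised with that gene in them. The classes, lists and named-gene rule were chosen with earlier results of these data known. Coordinates came from GENCODE M21 and the promoter from RefSeq, and 11804 of 11879 symbols were matched. Alternatives are given in the closing section. Python 3.11.15 with numpy 2.4.6, pandas 2.3.3, scipy 1.17.1 and matplotlib 3.10.9 was used.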

Additional observations from a re-analysis of the deposited data

Results flagged for a closer look

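In the 10 absent cells, 17 measures per cell were examined for a cell whose gap to the nearest of the others was large against the whole range (Dixon's criterion at the 95% level, which chance meets in about 1 group in 20). Of these, 6 measures met it, each a mean log2(TPM + 1) over a list. Cell 1-3 had a G2 and mitosis level of 4.05, the next cell having 1.91 and the median being 1.48, and a DNA replication level of 7.08, the next being 2.98 and the median 2.01. Both values came from the same cell. Cell 4-12 had the lowest pan-endothelial level, 5.2, below the next at 6.13 and the median of 6.42. Cell 2-13, with the fewest genes of the absent cells (4326), had the lowest integrin level, 0.70, against 1.95 in the next and a median of 2.24. Cell 1-7 had the highest erythroid marker level, 3.86, the next being 1.7 and the median 0.03. Cell 4-14 had a mast cell marker level of 0.53 over 2 genes, which were listed at 0 in the other absent cells.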

How the results depend on the processing

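Depth is unknown, cells of 1 sample gave no replicate, and 10 absent cells limited each share. The counts of genes past 2 (72 higher and 77 lower in high cells) were 177 and 20 with no covariate, 442 and 428 with a pseudocount of 0.1, 129 and 148 with high cells above TPM 50 (22 cells), 343 and 416 with absent cells listed at 0 only (4 cells), 123 and 126 without cells under 5000 genes, and 1037 and 241 by difference of medians. At a difference of 1 they were 859 and 925, and at 3 they were 6 and 3. With the first title number as a block, chosen after seeing the data, they were 74 and 82. Leaving out each first title number in turn gave 130 to 223 and 125 to 258, most without number 1. Without cell 4-6, which had the fewest genes, chosen after seeing the data, they were 87 and 88, and leaving out each of the 44 cells in turn gave 68 to 110 (without 1-3) and 72 to 108 (without 2-12). Differences of 40 points or more in the share of cells above TPM 1 were counted under a filter that high cells met more easily. Such genes numbered 161 (1.77%) higher and 16 lower. They were 305 higher with high cells above TPM 50, 481 and 171 with absent cells at 0, and, chosen after seeing the data, 93 and 69 with the 21 high cells inside the absent cells' range of genes per cell. Without each first title number they ran from 174 to 529 (number 1 left out) and from 24 to 66 (number 2 left out). The G2 and mitosis median was 0.12 to 1.17 over 17 alternatives and that of DNA replication 0.0011 to 1.32, both lowest without the single cell 4-6; replication was also at 0.04 and 0.03 without the first title numbers 3 and 4. The receptors ran from -1.26 to -0.03, the latter with no filter on low values. The megakaryocyte median kept its sign in 9 of 17, the blood factors in 7, the pan-endothelial genes in 10, and the leukocyte and venous genes in 15 each. Of 77 named genes, 57 kept their sign in every alternative, and Itgb3 was negative in 1 alternative (-0.32). The cause of these shifts was not tested.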
